A study of Mus musculus with 16 samples.

Results

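H19 and Igf2 are the 2 members of one imprinted locus described here, 2 of the 55291 genes of the normalised count table, chosen by symbol. H19 makes a spliced long non-coding RNA that is also the precursor of miR-675, and Igf2 encodes insulin-like growth factor 2, a secreted growth factor of the embryo and placenta. The genes are neighbours with opposite imprints: H19 is expressed from the maternal copy and Igf2 from the paternal copy. CTCF, a zinc finger protein, binds the unmethylated maternal copy of an imprinting control region upstream of H19 and insulates the Igf2 promoters from enhancers beyond H19. On the paternal copy the region is methylated, CTCF does not bind, and H19 is silent.

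RNA came from mouse embryonic stem cells of the E14Tg2a line (strain 129/Ola), in which the cell's own CTCF carries an auxin-inducible degron and a doxycycline-inducible transgene supplies CTCF. The transgene was wild type (WT) or had the R342C, K365T or Q418R change, and the series asks how such changes affect lineage commitment. All 4 lines, WT included, received 500 µM of the auxin indole-3-acetic acid (IAA) plus doxycycline at 1 µg/ml over 2 days, per the labels' protocol, so the WT group is also a degron line with a transgene. Each line was sampled in a serum-based medium that held 3 additions, leukemia inhibitory factor (LIF), CHIR99021 at 3 µM and the MEK inhibitor PD0325901 at 1 µM, and again 3 days after all of them had been left out. The media are called LIF and no LIF. Each of the 8 groups had 2 libraries, and nothing in the labels says that they came from separate cultures, so p-values measure a spread that may be technical. Each genotype is 1 line derived from E14Tg2a, so genotype and line cannot be told apart. The reads do not separate the parental copies, so imprinting itself was not measured.

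Both genes lie on the minus strand of chromosome 7 (build mm10, GENCODE M21 annotation). H19 (ENSMUSG00000000031.16, a lincRNA) spans 142575529 to 142578143 and Igf2 (ENSMUSG00000048583.16, protein coding) spans 142650766 to 142666816, with 72.6 kb between the gene bodies. The miR-675 hairpin, 84 bases long, lies in exon 1 of transcript H19-202, at bases 997 to 1080 of 2286. It is shown because H19 transcripts are its source. The mature arms are from RefSeq (GRCm38.p6), 5′ to 3′, with the seed (bases 2 to 8) in capitals, and both read from the minus strand, at chr7:142577112-142577133 for the 5p arm and chr7:142577078-142577099 for the 3p arm.
mmu-miR-675-5p: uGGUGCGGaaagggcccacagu
mmu-miR-675-3p: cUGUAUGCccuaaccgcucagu

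The arms have different seeds, GGUGCGG and UGUAUGC. In the RNA of H19-202, from the GENCODE M21 transcripts, bases 977 to 1100 hold both arms, given in capitals at bases 1011 to 1032 and 1045 to 1066.
H19-202 bases 977-1100: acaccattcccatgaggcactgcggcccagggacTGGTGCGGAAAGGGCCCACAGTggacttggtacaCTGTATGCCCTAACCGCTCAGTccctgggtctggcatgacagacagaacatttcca

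The Igf2 gene has several promoters, of which RefSeq (GRCm38.p6) gives 4 windows of 300 bases here. The window shown, chr7:142657447-142657746 on the minus strand, holds the start of transcript Igf2-201 and is the one of the 4 nearest to H19. The window of Mrpl23, a neighbour whose RNA rose with both genes, is shown beside it (chr7:142532782-142533081, plus strand). No window for H19 was used here. Capitals mark the GC box GGGCGG on either strand.
Igf2 promoter: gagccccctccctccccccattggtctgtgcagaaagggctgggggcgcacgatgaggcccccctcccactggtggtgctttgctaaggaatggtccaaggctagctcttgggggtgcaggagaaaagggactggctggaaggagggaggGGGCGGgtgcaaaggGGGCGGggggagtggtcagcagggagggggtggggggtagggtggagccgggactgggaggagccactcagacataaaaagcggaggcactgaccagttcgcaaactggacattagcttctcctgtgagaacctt
Mrpl23 promoter: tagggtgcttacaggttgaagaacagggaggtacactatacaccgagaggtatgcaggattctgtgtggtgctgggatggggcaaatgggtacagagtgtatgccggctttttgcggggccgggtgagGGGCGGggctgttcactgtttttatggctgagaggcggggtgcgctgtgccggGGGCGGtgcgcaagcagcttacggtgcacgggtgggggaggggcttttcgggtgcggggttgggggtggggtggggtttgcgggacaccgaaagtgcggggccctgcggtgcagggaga

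Each of these windows holds 2 GC boxes, a motif found in 35.7% of 32851 promoter windows. The window shown is the one of the 4 Igf2 windows with the most, as another holds 1 and the other two hold 0.

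The libraries held 19721363 to 31935381 reads, recovered from the normalised counts, in which 1 read was worth 0.779 to 1.19. The pluripotency markers Pou5f1, Sox2, Nanog, Zfp42, Esrrb, Utf1 and Dppa4 were above 0 in every library, with a summed normalised count of 64972 to 78360 in LIF and 20883 to 32570 without LIF. Against the sum, the medians of Utf1 (455 in LIF and 5991 without it) and Dppa4 (804 and 969) rose. Structural RNAs took 5.02% of the counts of WT replicate 2 without LIF, above the 1.97% to 3.88% of all 15 others. H19 was highest and Igf2 was lowest among the 8 libraries without LIF in this same library.

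H19 RNA was close to absent in LIF and appeared in every line after 3 days without it. In LIF the normalised counts of replicates 1 and 2 were 3.89 and 1.08 for the WT line, 0.787 and 0 for R342C, 3.32 and 4.11 for K365T, and 1.19 and 2.99 for Q418R. After withdrawal the WT line had 80.4 and 202, R342C 26.7 and 17.0, K365T 133 and 168, and Q418R 94.5 and 127. Every library without LIF was above every library with LIF. R342C was the lowest line in both media, in LIF with 1 read over its 2 libraries. Differences were fitted with limma on log2(normalised count + 4) over all genes with a mean count of at least 10, with 1 spread estimate over the 16 libraries, and called at a Benjamini-Hochberg adjusted p under 0.05. H19 rose by 4.38 ± 0.41 in WT (SE, adjusted p = 8.22e-07), 2.54 ± 0.41 in R342C (adjusted p = 0.000148), 4.31 ± 0.41 in K365T (adjusted p = 1.17e-06) and 4.24 ± 0.41 in Q418R (adjusted p = 1.23e-06). Among 17757 genes tested this was the 112th largest rise in WT, the 99th in K365T, the 146th in Q418R and the 733rd in R342C.

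Igf2 RNA followed the same course in each line, with a wider spread between replicates. In LIF its normalised counts were 3.12 and 2.16 for the WT line, 0 and 14.0 for R342C, 3.32 and 4.11 for K365T, and 3.57 and 0 for Q418R. After withdrawal the WT line had 141 and 38.2, R342C 61.1 and 187, K365T 45.3 and 152, and Q418R 55.0 and 66.2. The libraries of the 2 media did not overlap, while replicates without LIF differed by more than 3-fold in WT, R342C and K365T. The log2 rise was 3.56 ± 0.75 in WT (SE, adjusted p = 0.00119, limma), 3.72 ± 0.75 in R342C (adjusted p = 0.00088), 3.51 ± 0.75 in K365T (adjusted p = 0.00152) and 3.55 ± 0.75 in Q418R (adjusted p = 0.00129). Both genes were thus called higher in all 4 lines, where 23.8% of all tested genes were called higher in WT, 23.3% in R342C, 21.6% in K365T and 23.0% in Q418R. Both passed the filter on low counts only through their level without LIF, so their call is no support for a rise as such.

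**Figure D1:**
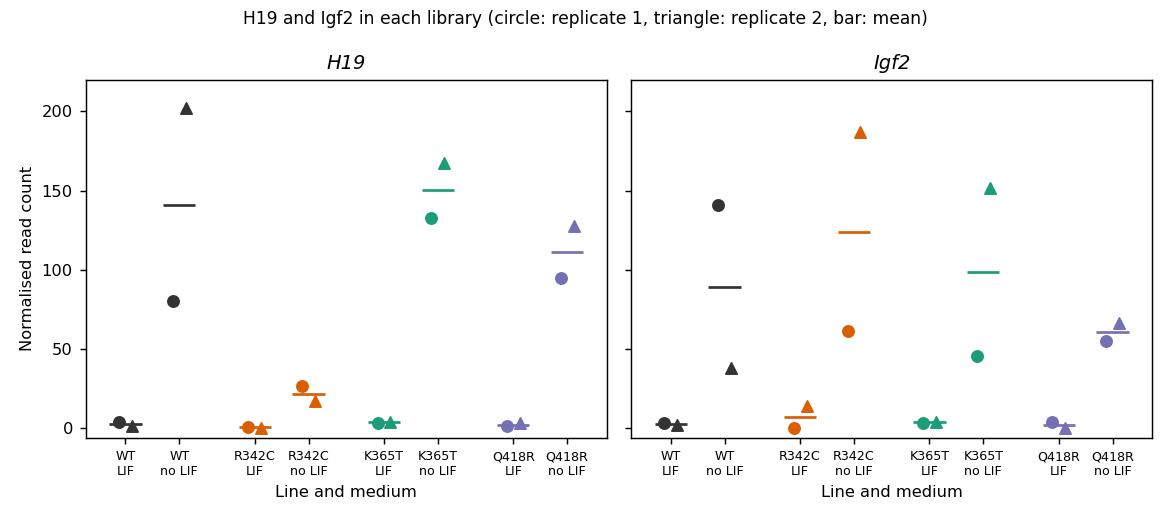
Normalised read counts (linear axis) of H19 (left) and Igf2 (right) in each of the 16 libraries, by line and medium, with bars at the mean of 2 libraries. All LIF libraries lie at or under 14.0, and without LIF H19 in R342C (17.0 and 26.7) lies below the other lines.

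Because 4 is added before the logarithm, fitted differences of genes near 0 are compressed, and the recovered reads give the size of the change directly. Over the 2 libraries of a group, H19 had 6 reads in LIF and 264 without it in WT, a ratio of 50.2 (95% exact interval 22.8 to 138, counting error only). In R342C it went from 1 read to 47, a ratio of 52.4 (8.96 to 2113), in K365T from 7 to 273, 40.1 (19.2 to 100.7), and in Q418R from 4 to 211, 51.4 (19.8 to 190). The 4 intervals overlap, so on this scale the rise of H19 in R342C was not distinguishable from that in the other lines. Igf2 rose by a ratio of 34.4 (15.5 to 95.1) in WT, 18.4 (10.9 to 33.3) in R342C, 25.9 (12.3 to 65.3) in K365T and 37.4 (12.5 to 184) in Q418R. Without replicate 2 of WT without LIF, a setting chosen after the values were seen, the WT ratio was 29.6 (13.05 to 83.0) for H19 and 51.8 (23.2 to 143) for Igf2. Polymerase chain reaction copies are not independent molecules, and in bulk RNA more cells with a transcript and more transcript per cell cannot be told apart.

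Against WT, H19 was lower in the R342C line without LIF. The 2 R342C libraries (26.7 and 17.0) lay below all 6 libraries of the other lines (80.4 to 202). The log2 difference was -2.38 ± 0.41 (SE, adjusted p = 0.014, limma), the 9th lowest of 17757 genes, and the read ratio to WT was 0.164 (0.117 to 0.224, counting error only). H19 was among the 19 genes called lower in this comparison, 0.107% of those tested, and Igf2 was not called. Without replicate 2 of WT the H19 difference was -1.73 (adjusted p = 0.233), and without replicate 2 of R342C -2.10 (adjusted p = 0.293), so the call rests on each of these libraries, and without that WT library the read ratio was 0.278 (0.190 to 0.402). It also ended with a pseudocount of 1 (-2.53, adjusted p = 0.0845), with no filter on low counts (adjusted p = 0.0728) and with only the 4 libraries compared (adjusted p = 0.87), while edgeR (-2.67, adjusted p = 0.0176) and DESeq2 (-2.68, adjusted p = 7.77e-05) on the recovered reads kept it.

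The R342C level was also set against the other mutants, comparisons added after the values were seen. H19 in R342C was lower than in K365T by a log2 difference of -2.59 ± 0.41 (SE, adjusted p = 0.00242, limma) and than in Q418R by -2.16 ± 0.41 (adjusted p = 0.016), where 4.41% and 0.71% of genes were called lower. These differences do not use the WT libraries. Their SE and p-values do, through the 1 spread estimate over the 16 libraries. The first was called without any 1 of its 4 libraries, with adjusted p up to 0.0308, and the second was lost without replicate 2 of R342C (-1.89, adjusted p = 0.155) or without either Q418R library (adjusted p = 0.0681 and 0.113). With only the 4 libraries compared both were lost (adjusted p = 0.135 and 0.148). The difference between K365T and Q418R (0.43 ± 0.41, adjusted p = 0.642) was not called, in a comparison where 3.37% of genes were.

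In LIF none of the mutant lines was called for either gene. H19 differed from WT by -0.53 ± 0.41 in R342C (SE, adjusted p = 1), 0.28 ± 0.41 in K365T (adjusted p = 0.73) and -0.07 ± 0.41 in Q418R (adjusted p = 0.958, limma). Igf2 differed by 0.36 ± 0.75, 0.22 ± 0.75 and -0.27 ± 0.75, with adjusted p of 0.901 or more. Across all genes 0.417% were called for R342C, 11.1% for K365T and 4.25% for Q418R. With 1 to 15 reads per gene and group in LIF, a difference between lines of the size seen without LIF was not detectable at this depth: the read ratio of R342C to WT for H19 was 0.157, with an interval of 0.00341 to 1.29.

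Without LIF, Igf2 was not called in any mutant line. It differed from WT by 0.51 ± 0.75 in R342C (SE, adjusted p = 0.969, limma), 0.17 ± 0.75 in K365T (adjusted p = 0.915) and -0.28 ± 0.75 in Q418R (adjusted p = 0.862). H19 differed by 0.22 ± 0.41 in K365T (adjusted p = 0.777) and -0.21 ± 0.41 in Q418R (adjusted p = 0.804). In these comparisons 0.479%, 14.7% and 6.15% of genes were called in R342C, K365T and Q418R. All mutant comparisons share the 2 WT libraries of their medium.

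The order of the lines without LIF differed between the genes. For H19 the mean normalised count was highest in K365T (150 ± 24.6, SD, n = 2), then WT (141 ± 86.0), Q418R (111 ± 23.2) and R342C (21.8 ± 6.86). Only the last step, from Q418R to R342C, separated libraries that did not overlap. Without replicate 2 of WT the remaining WT library (80.4) was below both Q418R libraries (94.5 and 127), so the place of WT in the order rests on that library. For Igf2 the order was R342C (124 ± 88.8), K365T (98.5 ± 75.2), WT (89.4 ± 72.5) and Q418R (60.6 ± 7.96), and all neighbours in it overlapped. Here too the place of WT rests on replicate 2, since replicate 1 alone (141) was above the R342C mean. In LIF, where no group mean exceeded 6.98, the H19 order was the same, but it rests on 1 to 7 reads per group. Only Q418R and R342C did not overlap there, and their nearest libraries (1.19 and 0.787) held 1 read each. For Igf2 in LIF, K365T (3.71) and WT (2.64) did not overlap, while the other neighbours in the order did. The nearest libraries of K365T (3.32) and WT (3.12) held 3 and 4 reads, so this gap is no difference in reads.

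The difference between a mutant's response to the medium and that of WT was tested as an interaction. For H19 in R342C it was -1.84 ± 0.58 (SE, adjusted p = 1, limma), the 6th lowest of 17757 genes, and this interaction called 0.0% of genes, 0 in all (288 at an unadjusted p under 0.05, 0 by edgeR and 2 by DESeq2). On the recovered reads the difference was -0.33 with edgeR and -0.041 with DESeq2. In K365T and Q418R the H19 interactions were -0.07 ± 0.58 and -0.14 ± 0.58, and the Igf2 interactions lay between -0.05 and 0.16 in the 3 lines, each ± 1.06. None of these was called, where 0.659% of genes were called in K365T and 0.141% in Q418R.

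**Figure D2:**
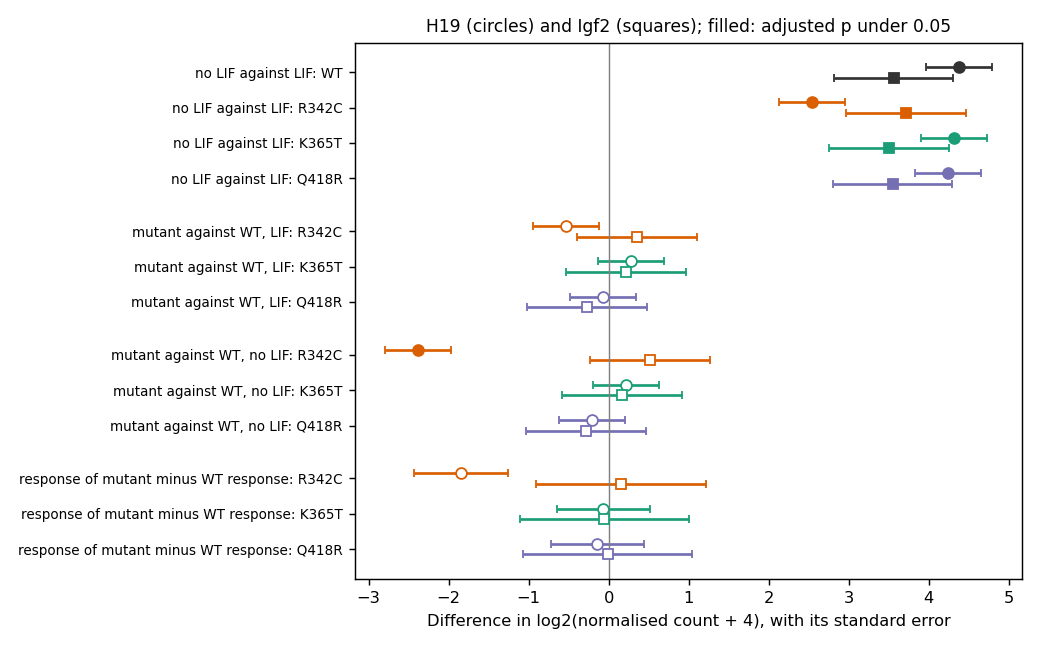
Differences in log2(normalised count + 4) with their standard errors for H19 (circles) and Igf2 (squares) in 13 comparisons, filled where the adjusted p was under 0.05. The 8 points for withdrawal of LIF and H19 in R342C against WT without LIF (-2.38) are filled.

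The deposited TPM values (transcript abundance corrected for gene length and library size) allow the genes to be set against each other. The mean TPM over 8 libraries went from 0.11 to 5.56 for H19 and from 0.0829 to 2.17 for Igf2, which moved H19 from the 25.3 to the 66.0 percentile of genes above 0 and Igf2 from the 22.1 to the 56.6 percentile. Without LIF, WT libraries had an H19 to Igf2 TPM ratio of 1.33 and 12.3, R342C of 1.02 and 0.212, K365T of 6.81 and 2.57, and Q418R of 4.0 and 4.47. H19 was thus above Igf2 in 7 of 8 libraries, with replicate 2 of R342C the exception. R342C lay below the 6 libraries of the other lines (1.33 to 12.3) in this ratio, which follows from its low H19 and was not tested separately. In WT and R342C the library with more H19 had less Igf2, and in K365T and Q418R replicate 2 had more of both.

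**Figure D3:**
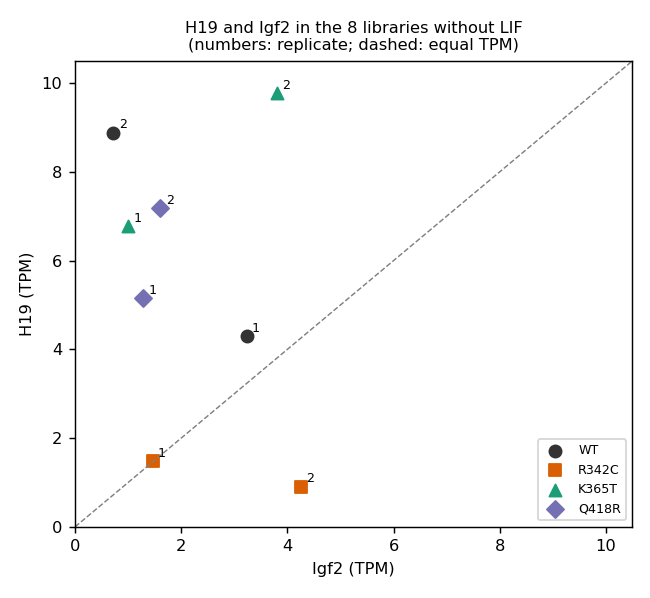
TPM of H19 against TPM of Igf2 in the 8 libraries without LIF (linear axes, colour and shape by line, numbers for the replicate, dashed line at equal TPM). Replicate 2 of R342C lies below the line, and the WT replicates differ in opposite directions for the 2 genes.

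Other transcripts of the locus were scarce. The annotated precursor of miR-675 (Mir675) and the neighbouring genes Ins2, which encodes insulin, and Nctc1, a non-coding RNA, were at 0 in all 16 libraries. Total RNA libraries of this kind are not made to capture mature microRNAs. Mir483, in intron 2 of Igf2-201, had 1 read in all, and Gm49394, a gene model on the same strand over Igf2, had 5. Igf2os, an antisense transcript of Igf2, was below the filter with a mean of 8.04, and went from 16 reads in the 8 LIF libraries to 108 in the 8 without. Its read ratio was 5.14 (1.69 to 20.9) in WT, 6.47 (2.47 to 21.4) in R342C, 6.17 (2.12 to 24.5) in K365T and 12 (3.81 to 60.9) in Q418R. The kit marks strand, but the strand setting of the counting is not given in the sources used here, so reads of Igf2 and Igf2os may be mixed. Strand cannot separate Igf2 from Gm49394. The counting tool is not given either, so how reads shared by these genes were assigned is not known, a limit on every Igf2 level given here.

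The closest tested neighbour on the far side of H19, Mrpl23, rose with it. Mrpl23 encodes a protein of the mitochondrial ribosome, and its start site lies 45.5 kb from that of H19, away from Igf2. Its normalised count was 9.24 to 25.7 in the 8 LIF libraries (median 18.8) and 116 to 205 without LIF (median 143), with no overlap. It rose by 2.95 ± 0.32 in WT (SE, adjusted p = 3.74e-06, limma), 2.91 ± 0.32 in R342C, 3.02 ± 0.32 in K365T and 2.70 ± 0.32 in Q418R. Without LIF its mean was 205 ± 1.08 in WT (SD, n = 2), 138 ± 4.84 in R342C, 147 ± 43.8 in K365T and 142 ± 4.64 in Q418R. All 6 mutant libraries lay below both WT libraries, but no mutant line was called against WT, and R342C overlapped with the other mutants. The 47 other tested Mrpl genes, a set compared after these values were seen, had mean counts of at least 328 in LIF (median 947), and their WT changes lay between -0.83 and 0.53.

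The annotation has 60 genes whose whole body lies between 500 kb before H19 and 500 kb beyond Igf2, of which 38 were above 0 and 14 were tested. Of the 12 other than H19 and Igf2, 5 were called higher and 4 lower in WT, against 4 and 3 for R342C, 3 and 1 for K365T and 3 and 4 for Q418R, with a median change of 0.48 in WT and -0.13, 0.20 and -0.20 in the mutants. Kcnq1 reaches into this window without lying in it, and with it 6 of 13 were higher in WT and the median was 0.82. The medians over all tested genes lay between -0.016 and -0.0017. In WT, R342C, K365T and Q418R, 23.8%, 23.3%, 21.6% and 23.0% of them were called higher, and 24.9%, 23.9%, 23.0% and 23.5% lower. Besides Mrpl23, those higher in WT were the phosphatase gene Dusp8 (2.19 ± 0.41), Lsp1 (1.58 ± 0.43), R74862 (1.34 ± 0.28) and Ascl2 (0.90 ± 0.26). The tetraspanin gene Tspan32 fell most, by 3.98 ± 0.32, from 117 to 300 normalised counts in LIF to 1.14 to 16.3 without it. Cd81, a second tetraspanin gene (-1.12 ± 0.16), Tssc4 (-0.64 ± 0.18) and Ifitm10 (-1.25 ± 0.42) also fell in WT. Ctsd, Th and Gm33148, a lincRNA gene between H19 and Igf2, were not called in WT (0.13, -0.04 and 0.82). Leaving out 1 WT library ended the calls of Ascl2, Tssc4 and Ifitm10.

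The neighbouring imprinted domain, regulated by a separate control region and the non-coding RNA Kcnq1ot1, has start sites 528 to 1179 kb from that of H19 on the Igf2 side. Cdkn1c, an inhibitor of cyclin-dependent kinases and a maternally expressed gene of this domain, went from 164 to 205 normalised counts in LIF to 1516 to 2508 without it. Its rise was 3.32 ± 0.23 in WT, 3.23 ± 0.23 in R342C, 3.43 ± 0.23 in K365T and 3.50 ± 0.23 in Q418R (SE), called in each. Phlda2, a growth-restricting placental gene, rose by 2.09 ± 0.23, 2.49 ± 0.23, 3.05 ± 0.23 and 2.41 ± 0.23, and Osbpl5 by 1.20 to 1.89. Kcnq1ot1 itself was not called in any line (0.18 to 0.53 ± 0.24), nor was Nap1l4 (-0.09 to 0.08 ± 0.13). Slc22a18 fell in WT, R342C and Q418R (-0.97 to -1.09 ± 0.33) and not in K365T (0.03), each of these falls lost without 1 or more of its libraries. Kcnq1 rose in WT (1.02 ± 0.38), a call also lost without a WT library, and Cars was lower in K365T and Q418R (both -0.75 ± 0.23), calls that were lost in the same way. On the other side, beyond 500 kb, Mob2 rose by 0.63 ± 0.15 in WT and Brsk2 was called in R342C (1.25 ± 0.32) and not in WT (0.40 ± 0.32). Over the 20 tested genes of the fixed locus list apart from H19 and Igf2, 9 rose and 5 fell in WT, against 8 and 4 for R342C, 6 and 2 for K365T and 6 and 6 for Q418R, where 21.6% to 23.8% of all tested genes were called higher and 23.0% to 24.9% lower.

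**Figure D4:**
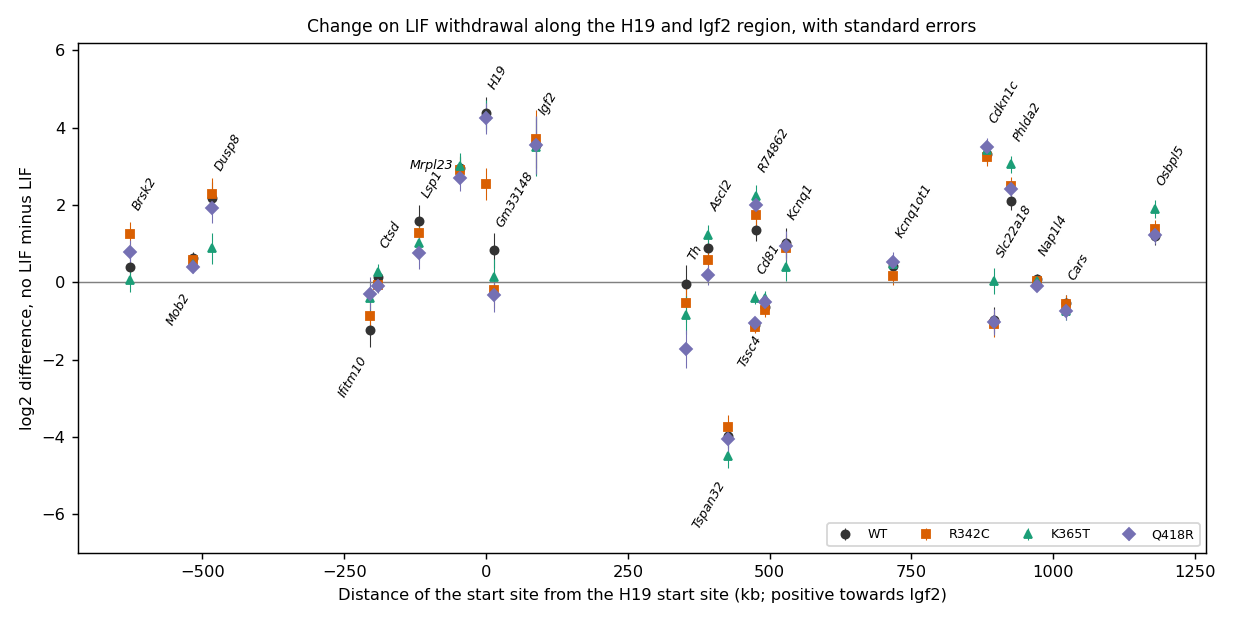
Log2 difference between no LIF and LIF, with standard errors, for the tested genes of the region in each line, by distance of the start site from that of H19 in kb (positive towards Igf2). Mrpl23, H19 and Igf2 are high, with Gm33148 (0.82 in WT, not called) between H19 and Igf2, Cdkn1c and Phlda2 form another high pair at 883 and 925 kb, and Tspan32 is the lowest.

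Against WT, 5 of the 20 other locus genes were called lower in K365T in LIF, and 1, Tspan32 (-1.59 ± 0.32), without LIF. Of all 17757 tested genes, 828 were called lower in K365T in LIF and 1302 without it. In either direction the shares were 11.1% and 14.7%. In Q418R none was called in LIF, where 4.25% of all genes were, and without it, where 6.15% were, Kcnq1ot1 was higher (0.88 ± 0.24) and Ascl2 lower (-0.97 ± 0.26). In R342C none was called in either medium, in comparisons that called 0.417% and 0.479% of all genes, so no call among 20 genes is near that background. The 5 in K365T in LIF were Slc22a18 (-1.26 ± 0.33), Tspan32 (-1.08 ± 0.32), Phlda2 (-0.78 ± 0.23), Ctsd (-0.64 ± 0.19) and Cd81 (-0.60 ± 0.16). Of these 8 calls, only that of Tspan32 without LIF held when each library was left out in turn, with adjusted p up to 0.047, and it was lost with only the 4 libraries compared (adjusted p = 0.17).

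IGF2 signals through the receptor tyrosine kinases IGF1R and INSR, while IGF2R, the product of another imprinted gene, takes the factor up for degradation. Both signalling receptors rose without LIF. Igf1r went from 1471 to 1773 normalised counts in LIF (median 1623) to 2945 to 5207 without it (median 4421), a rise of 1.62 ± 0.11 in WT, 1.37 ± 0.11 in R342C, 0.91 ± 0.11 in K365T and 1.57 ± 0.11 in Q418R (SE), with no overlap between the media. Insr rose by 1.28, 1.02, 0.78 and 0.94 (each ± 0.15). Igf2r, at 3503 to 6690 in LIF and 6455 to 7788 without it, rose by 0.79 ± 0.14 in WT, 0.43 ± 0.14 in R342C and 0.38 ± 0.14 in K365T and was not called in Q418R (0.23 ± 0.14), the media overlapped, and the R342C and K365T calls were lost without any 1 of their libraries. Per length, Igf2r without LIF was at a mean of 99.3 TPM and Igf1r at 33.0 TPM, against 2.17 TPM for Igf2. The other ligands were low, with Igf1 at no more than 6.32 normalised counts in any library and Ins2 at 0.

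Of the 17 tested genes of the IGF list apart from Igf2, 9 rose and 3 fell in WT, against 10 and 3 for R342C, 10 and 2 for K365T and 9 and 2 for Q418R, and their median change was 0.72, 0.60, 0.78 and 0.63. Over all tested genes 23.8% were called higher and 24.9% lower in WT, with like shares in the mutants. Binding proteins, which carry the factors outside cells, moved in both directions: Igfbp4 rose by 3.98 ± 0.31 in WT, from 5.51 to 15.5 normalised counts in LIF to 179 to 374 without it, and Igfbp3 by 3.37 ± 0.17. Igfbp7 fell by 2.04 ± 0.38 on the log2 scale and Igfals, which encodes a subunit of circulating IGF complexes, by 2.19 ± 0.29. Adaptors of the receptors rose, with Irs4 at 3.80 ± 0.37, Irs1 at 0.89 ± 0.30, Irs2 at 0.72 ± 0.16 and Grb10, an imprinted inhibitor of the receptors, at 1.93 ± 0.23 in WT. The Irs1 call was lost without a WT library. The RNA-binding proteins Igf2bp1 and Igf2bp2, named for binding Igf2 RNA, were not called in WT (0.27 ± 0.15 and -0.11 ± 0.16) and Igf2bp3 was lower by -0.37 ± 0.12, a call lost without replicate 2 of WT in either medium. In R342C no gene of this list was called against WT in either medium, near the 0.417% and 0.479% of all genes called there. In K365T without LIF Igf1r was lower by -0.62 ± 0.11 (adjusted p = 0.00295), a call lost with TPM (adjusted p = 0.0721) and with only the 4 libraries compared (adjusted p = 0.191).

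CTCF and the factors that place or keep the imprint were measured in the same libraries. Ctcf RNA, in which reads of the endogenous gene and the transgene were not separated here, was at 5853 to 8585 normalised counts in LIF and 5292 to 8406 without it, and was not called in any line (-0.24 to -0.12, each ± 0.15). Ctcfl, its germline paralog, rose from 0 to 14.9 normalised counts in LIF to 37.1 to 81.9 (2.65 ± 0.47 in WT). With a median of 7.41 in LIF, Ctcfl passed the filter on low counts only through its level without LIF. Zfp57, a zinc finger protein that protects methylated imprints, fell in every line, by 2.06 ± 0.15 on the log2 scale in WT, 2.27 in R342C, 2.67 in K365T and 3.04 in Q418R, from 7590 to 11686 normalised counts in LIF to 1247 to 2396. Uhrf1, a partner of the maintenance methyltransferase, fell by 1.21 ± 0.10 in WT, whereas that enzyme's own gene Dnmt1 was not called in WT (-0.18 ± 0.11) or R342C (-0.22 ± 0.11). The de novo methyltransferase genes Dnmt3a (2.70 ± 0.15) and Dnmt3b (3.27 ± 0.27) and their cofactor Dnmt3l (2.20 ± 0.33) rose, and Tet2 (-2.98 ± 0.18) and Tet1 (-0.70 ± 0.12), of the TET demethylation enzymes, and Dppa3 (-5.24 ± 0.55) fell. The TET gene Tet3 rose in WT (0.64 ± 0.13), R342C (0.91 ± 0.13) and Q418R (0.78 ± 0.13) and was not called in K365T (0.10 ± 0.13). Of the 20 genes 6 rose and 8 fell in WT, against 6 and 8 for R342C, 5 and 9 for K365T and 6 and 9 for Q418R, where 23.8% of all tested genes were called higher and 24.9% lower in WT. In R342C none was called against WT in either medium, near the 0.417% and 0.479% of all genes called there.

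Other imprinted genes also rose. Of 14 other genes listed as members of the imprinted gene network, 11 rose and 1 fell in WT, against 11 and 1 for R342C, 10 and 2 for K365T and 10 and 2 for Q418R, with medians of 1.69, 1.88, 1.56 and 1.81, where 23.8% of all tested genes were called higher and 24.9% lower in WT. One of the 14, Dcn, had at most 0.787 normalised counts in LIF and passed the filter on low counts only through its level without LIF. Dlk1, a Notch pathway ligand, rose by 2.97 ± 0.27 in WT, its non-coding neighbour Meg3 by 1.03 ± 0.17, Mest by 2.02 ± 0.21, Peg3 by 1.44 ± 0.25, Sgce by 3.34 ± 0.24 and Gatm by 3.62 ± 0.27. Plagl1, a zinc finger gene known to activate Igf2 and H19, fell instead, by 2.97 ± 0.19 in WT, 2.47 in R342C, 1.93 in K365T and 3.05 in Q418R. Peg3 was the gene of this list, besides H19, that was called in R342C without LIF, at 1121 ± 472 normalised counts against 6975 ± 790 in WT (SD, n = 2), a log2 difference of -2.69 ± 0.25 (SE, adjusted p = 0.000234, limma). Peg3 was also called lower in K365T (-2.90 ± 0.25) and Q418R (-1.98 ± 0.25). With only the libraries compared these 3 calls ended (adjusted p = 0.331, 0.0565 and 0.106). In LIF the Peg3 mean was also lower in R342C (339 ± 119, SD, n = 2), K365T (448 ± 36.7) and Q418R (511 ± 76.2) than in WT (2557 ± 198). Unlike that of H19, its lower level was thus shared by the 3 mutant lines and both media. The lists of this report were chosen with earlier results of these data known, and their counts are descriptions.

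**Figure D5:**
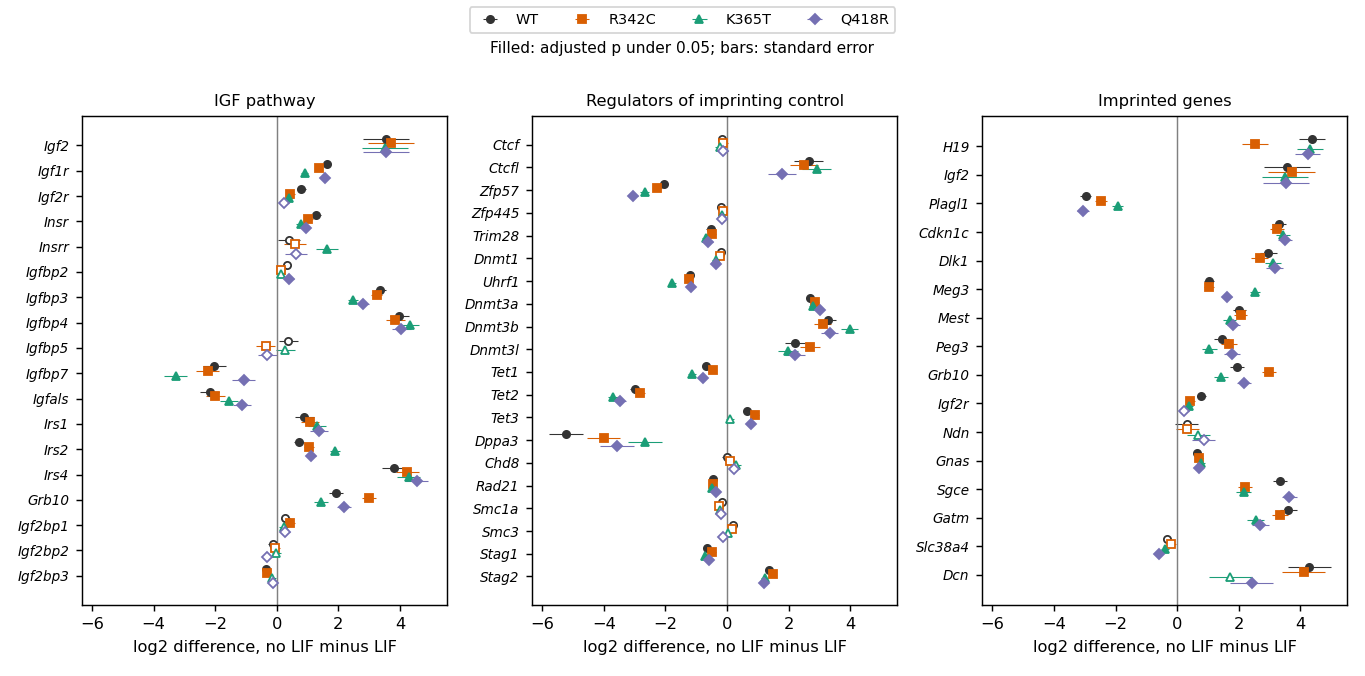
Log2 difference between no LIF and LIF with standard errors for the tested genes of 3 lists, by line, filled where the adjusted p was under 0.05. H19 in R342C lies below the other 3 lines on this scale, which compresses differences of genes near 0. In recovered reads its rise was not distinguishable from theirs (ratio 52.4, against 50.2 in WT, 40.1 in K365T and 51.4 in Q418R). Plagl1, Zfp57, Tet2 and Dppa3 lie on the low side.

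Markers of differentiated cells that express H19 and Igf2 moved in part with them. The summed normalised count of 12 markers of extraembryonic endoderm was 4730 to 13938 in LIF and 10481 to 39377 without it. Apoe alone gave 4228 to 13535 and 8558 to 38109, and the highest sum was in replicate 2 of WT without LIF, the library with the most H19. Of the 9 tested, 6 rose and 1 fell in WT, where 23.8% of all tested genes were called higher and 24.9% lower. Cubn, Sox7 and Foxa2 passed the filter on low counts only through their level without LIF. The filter thus favours a rise in this count, which is no support for one. Dab2 went from a median of 119 in LIF to 1010 without it, Cubn from 2.37 to 361 and Sox7 from 1.87 to 31.2. Foxa2 went from 3.49 to 21.8 and Gata4 from 196 to 362. The media overlapped for Gata6 (medians 69.02 in LIF and 88.49 without it), Sox17 (20.04 and 25.02) and Amn (30.92 and 44.51). The lowest libraries of Gata6 (45.8 in LIF and 23.9 without it) and Sox17 (12.9 and 6.70) were lower without LIF, and that of Amn (8.21 and 22.8) was higher. Afp, Ttr and Apoa1, also on the list, had no more than 6.84 in any library and were not tested. The 7 fibroblast markers summed to 118 to 288 in LIF and 751 to 1336 without it, including Thy1 (median 78.2 in LIF and 566 without it), with Col1a2 at a median of 0.498 and 61.5, Lum at 0 without LIF, Postn at no more than 1.11 in any library, and Dcn at 0.787 or less in LIF and 5.50 to 171 without it. The 8 mesoderm markers summed to 373 to 540 and 288 to 655, and the 8 trophoblast markers to 2254 to 3691 and 1906 to 3398, with Prl3d1 at 0 in all libraries. Within both sums members moved in opposite directions. Of the mesoderm markers, Kdr went from a median of 199 to 16.5 and Mixl1 from 30.3 to 70.4. Of the trophoblast markers, Tfap2c went from 2299 to 674 and Krt18 from 230 to 887. In R342C without LIF the endoderm sum was 27290 and 25986 and the fibroblast sum 871 and 881, within the range of the other lines, where H19 was outside it. The part of these cells in the rise of H19 and Igf2 was not tested.

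The genes whose pattern was most like that of H19 over the 8 group means of log2(normalised count + 4) were Safb2 (Pearson r = 0.988), Arfrp1 (0.982), Zcwpw1 (0.977), Arv1 (0.974) and Rgs16 (0.972), among 11173 genes with a mean of at least 100. For Igf2 they were Stbd1, Ddr1, Raver2, Fndc4 and Bspry, with r of 0.994 to 0.996. All group means share the change of medium, and 690 genes exceeded r = 0.9 with H19 and 1555 with Igf2. H19 and Igf2 themselves had r = 0.888, rank 884 from the side of H19. Over the 16 libraries with the mean of each medium removed, H19 and Igf2 had r = -0.38. There the genes most like H19 were Xlr3a (0.858), Xlr4a (0.834), Zfy1 (0.831), Xlr3b (0.830) and Zfp951 (0.793), 3 of them from the Xlr family of close paralogs on the X chromosome, and those most like Igf2 were Mypop (0.889), Basp1 (0.856), Eef1akmt1 (0.850), Tysnd1 (0.833) and Mrps36 (0.826). These values are descriptions over few points that share lines and library depth.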

How the data were processed

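Total RNA was sequenced as stranded, ribosomal RNA-depleted 150 bp paired libraries, per the labels' protocols. The submitters' processing notes name Trim Galore, STAR, DESeq2 and mm10 without versions, and the counting tool and annotation are not given in the sources used here. The deposited normalised counts (a signal per gene, read counts divided by a size factor by the authors) and the authors' deposited TPM table were used. Each normalised value was a whole multiple of 1 read (100% within 0.05), so reads were recovered for count tests.

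Differences were fitted with limma 3.58.1 in R 4.3.3 (trended variance) on log2(normalised count + 4), over 8 group means with 8 residual degrees of freedom, for the 17757 of 55291 genes with a mean of at least 10. Adjusted p-values are Benjamini-Hochberg over all tested genes, two-sided, in every comparison. All 16 libraries entered each fit. The fit was tested on simulated data. Alternatives were a pseudocount of 1 or 16, no filter or a mean of at least 50, log2(TPM + 0.1), edgeR 4.0.16 and DESeq2 1.42.0 on recovered reads, a replicate block, only the groups compared, and each library left out. The read ratios have exact 95% intervals, which cover counting error only.

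The members and lists were chosen with earlier results of these data known. Genes named were H19, Igf2, the measured neighbours, ligands and receptors of IGF2, up to 6 called genes per list by size of change, and the 5 genes most like each member. Genes of the lists named beyond these (such as Irs1, Irs2, Igf2bp1, Ctcf, Uhrf1, Dnmt1, Tet1, Tet3, Meg3, Mest and Peg3), the marker genes with single values and the comparisons between mutant lines were chosen after their values were seen.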

Additional observations from a re-analysis of the deposited data

Results flagged for a closer look

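In the lists described here 2 genes responded to the medium differently in K365T and in WT, by a test of the difference itself (limma, adjusted over all genes). Over all 17757 tested genes 117 were called in this test, or 0.659%. Whether the lists exceed that share was not tested. Irs2, an adaptor of the insulin and IGF receptors, had a response 1.16 ± 0.23 larger on the log2 scale in K365T (SE, adjusted p = 0.0369). Its mean normalised count went from 593 ± 150 to 2154 ± 172 in K365T and from 1327 ± 10.8 to 2186 ± 1.70 in WT (SD, n = 2). Meg3, an imprinted non-coding RNA, had a response 1.501 ± 0.24 larger (adjusted p = 0.0147), from 1847 ± 152 to 10962 ± 3478 in K365T and from 5673 ± 354 to 11631 ± 1372 in WT. For both genes K365T lay below WT in LIF, and the libraries of the lines overlapped without it. Both calls were lost with no filter on low counts, with TPM and with only the groups compared. The Irs2 call held without replicate 1 of K365T in either medium and was lost without any 1 of the other 6 libraries (adjusted p of 0.071 to 0.14). The Meg3 call was lost without WT replicate 1 in LIF (adjusted p = 0.0731), WT replicate 2 without LIF (0.058) or K365T replicate 2 in LIF (0.0616).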

How the results depend on the processing

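The rise of H19 and Igf2 without LIF was called in each line under every alternative run, with log2 values of 2.98 to 5.74 (WT), 1.19 to 5.70 (R342C), 3.07 to 5.34 (K365T) and 2.80 to 5.70 (Q418R) for H19. Igf2 has a mean of 48.4 and so no value with a minimum mean of 50. The lower H19 of R342C against WT without LIF (-2.38) was no longer called with a pseudocount of 1 (-2.53), no filter (-2.38) or only the groups compared (-2.38), and ranged from -3.02 to -1.73 over the libraries left out, where an arm with 1 library is assumed to vary like the other groups. The call was also lost without replicate 2 of WT or replicate 2 of R342C. The other alternatives kept it. The cause was not tested. LIF depth, with 18 H19 and 31 Igf2 reads in 8 libraries, limits every comparison in LIF. Of the other named results, 2824 values under alternatives kept the call and 299 lost it.

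Counts of genes called moved as follows. DESeq2 gave 152 (R342C) and 1178 (Q418R) in LIF against 74 and 754, 141 and 1655 without LIF against 85 and 1092, and 2, 442 and 162 for the responses of R342C, K365T and Q418R against 0, 117 and 25. TPM gave 254 for Q418R in LIF, 610 without it, and 28 and 0 for the K365T and Q418R responses. No filter gave 22 and 0 for these responses. Only the groups compared gave 0 for R342C, 0 for K365T (from 2613) and 0 for Q418R without LIF, and 9 for each of the K365T and Q418R responses. Between mutants without LIF, TPM gave 730 for R342C against K365T (from 1563), 132 for R342C against Q418R (from 364) and 174 for K365T against Q418R (from 599), only the groups compared gave 0 for each, DESeq2 gave 770 and 1232 for the last pair of comparisons, and a library left out gave 486 to 1391, 53 to 120 and 40 to 596. With a library left out, counts were 30 to 48, 734 to 1005 (from 1968) and 156 to 246 for R342C, K365T and Q418R in LIF, 32 to 85, 865 to 2724 and 248 to 1580 without LIF, and 0 to 1, 11 to 259 and 0 to 51 for the responses.

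Differences that were not called changed sign. With edgeR and DESeq2 the Igf2 response of R342C was -0.80 and -0.90, and that of Q418R was 0.11 and 0.080. A pseudocount of 16 gave 0.093 for H19 and 0.057 for Igf2 in the K365T response, a pseudocount of 1 gave 0.47 for Igf2 in Q418R, and TPM gave 0.064 for Igf2 in K365T and 0.033 and 0.10 for H19 and Igf2 in Q418R. With a library left out, Igf2 in LIF ranged from -0.73 to 1.44 (R342C) and -0.73 to 0.19 (Q418R), and H19 from -0.036 to 0.60 (K365T) and -0.39 to 0.25 (Q418R). Without LIF Igf2 ranged from -0.38 to 1.40, -0.72 to 1.05 and -1.17 to 0.61 in R342C, K365T and Q418R, and H19 from -0.43 to 0.86 (K365T) and -0.86 to 0.43 (Q418R). Responses ranged from -0.93 to 1.24, -0.94 to 0.84 and -0.90 to 0.88 for Igf2, and from -0.71 to 0.58 (K365T) and -0.78 to 0.50 (Q418R) for H19. Between mutants without LIF, Igf2 ranged from -0.48 to 1.18 (R342C against K365T) and from -0.38 to 1.27 (K365T against Q418R). Most of these extremes came from leaving out 1 of the WT libraries without LIF.

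Replicate numbers showed no common pairing over all groups. Pairing within a line or within a medium was not checked separately. Over 28 pairs of groups, deviations of same-numbered libraries correlated at -0.39 to 0.45 (median 0.080), above 0.1 in 13. With the number as a replicate block the Q418R response called 8 genes, and H19 in R342C without LIF kept its call (adjusted p = 0.0212, limma).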
